A study of Mus musculus with 4 samples.

Results

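Distal CpGs, cytosine positions that lie far from any CpG-dense stretch of the genome, were described in 4 libraries of reduced representation bisulfite sequencing (RRBS). In RRBS, genomic DNA is cut with MspI at CCGG and converted with bisulfite. Methylated cytosines are then still read as cytosine, and a methylation level can be given for each CpG. The paper states that its profiling could not separate 5-methylcytosine from 5-hydroxymethylcytosine, and methylation here means both together. The members were chosen by coverage and position, and their methylation level was not used. An autosomal position entered when iPSCs, mdDA neurons and iPSC-DA neurons each had 5 or more calls there, and runs of at least 10 such positions with neighbors under 100 bp apart were taken as CpG clusters. Positions outside the 17133 clusters and more than 10000 bp from the nearest cluster edge are called distal here. They numbered 172721 of 809067 positions, or 21.3%, and made up 64.4% of the positions outside clusters.

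There was 1 library for each of 4 cell populations. The iPSCs were mouse fibroblasts of Pitx3 Gfp/+ embryos, reprogrammed with retroviral Oct4, Klf4, Sox2 and cMyc. The iPSC-DA neurons were PITX3-GFP-sorted cells derived from Pitx3 Gfp/+ iPSCs after about 4 weeks of differentiation on MS5 stromal cells, and the mdDA neurons were PITX3-GFP-sorted primary cells of the Pitx3 Gfp/+ embryonic midbrain at E14.5. The NESTIN-GFP precursors, named neurons in the label, were collected after 14 days of differentiation from iPSCs of another reporter line (Nestin Gfp/+). Cell line, reporter and stage therefore cannot be told apart for the precursors. The labels do not say which iPSC clone was sequenced. With no replicate of any condition, a difference between libraries could not be set against a spread between replicates, and no test compares conditions.

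In mammalian genomes CpG-dense islands are mostly unmethylated, while the scattered CpGs between them are mostly methylated by the de novo enzymes DNMT3A and DNMT3B and kept so at replication by DNMT1. Scattered CpGs of low or intermediate methylation are often found at distal regulatory elements such as enhancers, and broad domains of partial methylation are known from cultured cells. Pluripotent stem cells vary in their level of methylation with the culture conditions, and neural differentiation is accompanied by de novo methylation. These distal positions are the sparse side of an RRBS library, which by design covers mainly CpG-dense sequence.

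The distal positions were found on all 19 autosomes, from 5008 on chromosome 19 to 13305 on chromosome 4. Their median distance to a cluster was 54517 bp, with quartiles of 24714 and 136712 bp, and the farthest lay 5993603 bp away. Clusters were defined by coverage in these libraries, so that a CpG island that was not covered could lie closer. The positions fell into 71364 runs, and 28848 positions (16.7%) had no covered neighbor within 100 bp. A further 37.5% lay in runs of 2 or 3 positions and 45.8% in runs of 4 to 9. Coordinates fit the build NCBIM37 (mm9), and genes and sequences at these positions were not analysed here.

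The median depth of distal positions was 38 calls in iPSCs, 45 in the iPSC-DA and 46 in the mdDA library, compared with 87, 88 and 74 calls at positions in clusters. The library of NESTIN-GFP precursors had the opposite order, with a median of 26 calls at distal positions and 16 in clusters. In the precursors 147153 of the distal positions (85.2%) had at least 5 calls, and results with this library use these positions. Intervals for shares are Wilson 95% intervals. Since the libraries were amplified by PCR, reads can be copies of 1 molecule, and neighboring positions share reads. These intervals cover counting error only.

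At distal CpGs, methylation was lowest in iPSCs and highest in NESTIN-GFP precursors, with both DA libraries in between. Over the positions covered in all 4 libraries, the mean level was 59.6% in iPSCs, 88.1% in NESTIN-GFP precursors, 75.1% in the iPSC-DA and 75.5% in the mdDA library. Over the 19 autosomes the means ran from 55.8% to 61.5% in iPSCs and from 86.0% to 90.2% in the precursors. They ran from 72.7% to 77.4% in iPSC-DA neurons and from 71.8% to 79.0% in mdDA neurons. The ranges of the autosomes did not overlap between iPSCs, the DA libraries and the precursors, whereas those of the DA libraries did. Chromosome 11 had the lowest mean in iPSCs and in both DA libraries, and chromosome 10 the highest in mdDA neurons. Autosomes of a library are not replicates, and these ranges only describe how even the levels were along the genome.

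The shape of the distribution differed more than the mean between the DA libraries. The median was 85.4% in iPSC-DA neurons (quartiles 61.2% and 96.2%) and 91.1% in mdDA neurons (quartiles 65.0% and 97.6%). In iPSC-DA neurons 36.0% (95% CI 35.7% to 36.2%) of the distal CpGs had an intermediate level of 20% to 80%, compared with 21.1% (95% CI 20.9% to 21.3%) in mdDA neurons. Levels of 80% or more were found at 57.9% of positions in iPSC-DA neurons and at 67.4% in mdDA neurons, and levels under 20% at 6.14% and 11.5%, respectively. With at least 20 calls in all libraries, levels under 20% were found at 3.63% and 8.17%. Distal CpGs of mdDA neurons were thus more often near either end of the scale.

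In iPSCs the distal CpGs were spread over the whole range. Intermediate levels made up 48.3% (95% CI 48.1% to 48.6%) of them, levels of 80% or more 35.6% and levels under 20% 16.1%. The median was 68.8%, and 4.05% of positions had only methylated calls. In NESTIN-GFP precursors 84.7% (95% CI 84.5% to 84.9%) of positions were at 80% or more and 44.1% had only methylated calls. Levels of 20% to 80% made up 11.1% there, and levels under 20% made up 4.20%. A position with few calls reaches exactly 100% more easily, and the precursors were the shallowest library at these positions.

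The intermediate levels were not limited to shallow positions. At the 18066 distal positions with at least 50 calls in every library, 32.8% of levels in iPSC-DA neurons were intermediate, compared with 17.1% in mdDA neurons, 54.7% in iPSCs and 6.09% in the precursors. At the 34943 positions whose shallowest library had 5 to 9 calls, the shares were 35.4%, 22.4%, 43.9% and 12.9% in the same order of libraries.

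**Figure D1:**
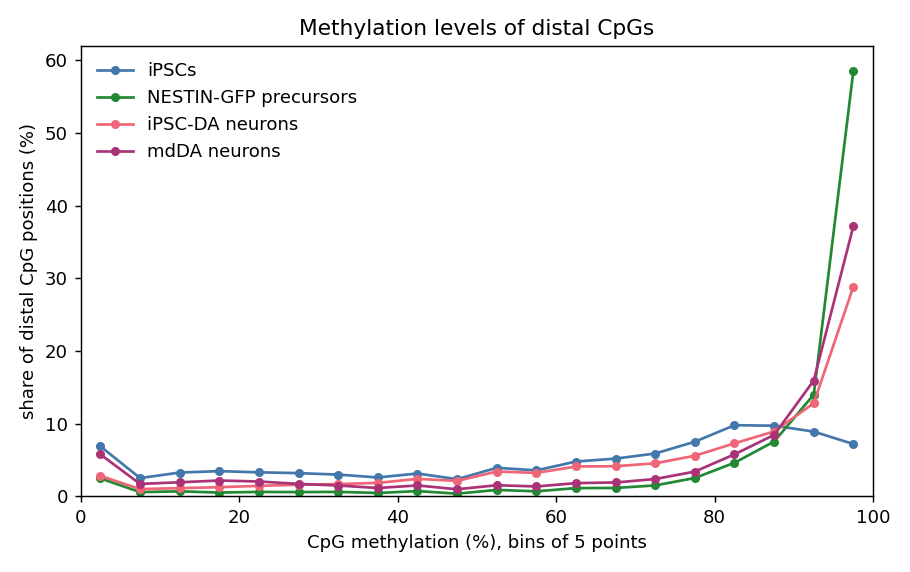
Share of distal CpG positions (vertical axis, %) in bins of 5 points of methylation (horizontal axis, %), 1 line for each of the 4 libraries, over the 147153 positions with at least 5 calls in all of them. The highest bin held 58.6% of positions in NESTIN-GFP precursors, 37.2% in mdDA neurons, 28.9% in iPSC-DA neurons and 7.19% in iPSCs.

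Outside clusters, levels were higher with distance from the cluster edge, steeply so over the first few kilobases, and beyond 10000 bp the slope went on in iPSCs and mdDA neurons. Within 2000 bp of a cluster, levels averaged 17.5% in iPSCs, 48.9% in NESTIN-GFP precursors, 38.3% in the iPSC-DA and 26.9% in the mdDA library. Just inside the distance limit, at 8000 to 10000 bp, the means were 50.7%, 84.4%, 73.5% and 70.8%, and just beyond it, at 10000 to 12000 bp, they were 52.8%, 87.7%, 74.8% and 73.0%. The limit therefore fell on a gradual part of the curve.

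Among the distal positions, the mean in iPSCs was 53.6% at 12000 to 20000 bp, 59.4% at 50000 to 100000 bp and 71.1% beyond 500000 bp. In mdDA neurons it was 73.1%, 74.0% and 85.6% in the same bins. In iPSC-DA neurons it stayed between 74.6% and 76.8% in every bin beyond 10000 bp, and in the precursors between 86.8% and 89.6%. The share of positions at 80% or more went from 63.6% at 12000 to 20000 bp to 83.6% beyond 500000 bp in mdDA neurons, but only from 59.3% to 56.8% in iPSC-DA neurons. Positions beyond 200000 bp had a higher mean than those at 10000 to 20000 bp on 19 of 19 autosomes in iPSCs, by 6.14 to 19.4 percentage points, and on 19 of 19 in mdDA neurons, by 4.41 to 13.2 points. In iPSC-DA neurons the far positions were higher on 12 autosomes and in the precursors on 15. Median depth fell from 43 to 36 calls over the distal bins in iPSCs and lay between 49 and 56 calls in mdDA neurons. The part of depth in the trend was not tested.

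Over runs of all lengths together, the order of the DA libraries turned with distance. At 10000 to 12000 bp the iPSC-DA library was higher than the mdDA library by a mean of 1.75 points, at 50000 to 100000 bp by 0.619 points, and at 100000 to 200000 bp the difference was -0.901 points. At 200000 to 500000 bp it was -4.01 points, and beyond 500000 bp it was -8.81 points over 8272 positions. Within 2000 bp of a cluster it was 11.4 points.

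**Figure D2:**
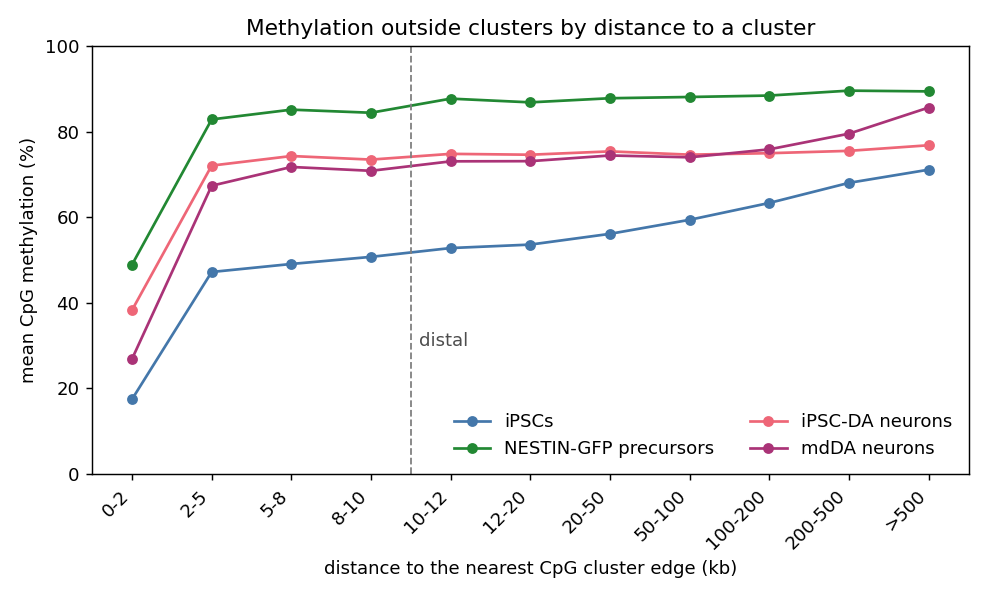
Mean CpG methylation (vertical axis, %) of positions outside clusters by distance to the nearest cluster edge (horizontal axis, kb, unequal bins), 1 line for each library. Positions to the right of the dashed line are distal. Over runs of all lengths together, the lines of iPSC-DA and mdDA neurons cross near 100 kb and reach 76.8% and 85.6% in the last bin.

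Levels also went with the number of covered neighbors. Isolated distal positions averaged 68.6% in iPSCs, 94.2% in NESTIN-GFP precursors, 78.0% in the iPSC-DA and 82.8% in the mdDA library. Positions in runs of 9, the longest that are not a cluster, averaged 35.6%, 66.4%, 59.2% and 52.7%. Each step from 1 to 9 positions had a lower mean than the one before in all 4 libraries. The difference between the DA libraries followed both measures. Among isolated positions the mean of iPSC-DA minus mdDA neurons was -2.14 points at 10000 to 20000 bp and -10.4 points beyond 200000 bp. Among positions in runs of 2 or 3 it was -0.102 points and -7.49 points, and in runs of 4 to 9 it was 3.81 points and -1.79 points. Beyond 10000 bp the order of the DA libraries thus turned only in runs of 4 to 9.

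Methylated and unmethylated calls of each position were then compared between 2 libraries by Fisher's exact test (two-sided), and p-values were adjusted by the Benjamini-Hochberg method over all autosomal positions tested. A position was called where its level differed by 20 points or more with an adjusted p-value under 0.05. The test treats calls as independent and compares libraries, not conditions. Its p-values are too small, and the library of iPSCs is shared by 3 of the 5 comparisons. The share of all tested positions that was called, clusters included, is given beside each count of distal positions.

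The comparison of iPSCs with iPSC-DA neurons asks how distal CpGs differ before and after differentiation in vitro. Mean methylation over the 172721 distal positions was 58.6% in iPSCs and 73.4% in iPSC-DA neurons, and the mean difference was 14.8 points, from 12.9 to 16.9 points on single autosomes. In iPSC-DA neurons 47776 distal positions were called higher, or 27.7% (95% CI 27.5% to 27.9%), compared with 27.0% of all positions tested. A share of this size is near the background. Called lower were 8156 distal positions, or 4.72%, compared with 1.21% of all positions. Within 10000 bp of a cluster, 34.8% of the non-cluster positions were called higher and 1.16% lower. Calls of gain were thus less frequent and calls of loss more frequent at distal positions than nearer to clusters. In iPSCs 70.4% of the positions within 2000 bp of a cluster were under 20% and could not be called lower. The same held for 91.9% of the positions in clusters. The difference between these sets of positions, and the part of the starting level in it, was not tested.

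In mdDA neurons the distal positions exceeded iPSCs by a similar mean, of 15.0 points, with 13.5 to 18.3 points on single autosomes. Called higher were 40576 positions, or 23.5% (95% CI 23.3% to 23.7%), compared with 8.86% of all positions tested. Called lower were 6648 positions, or 3.85%, compared with 1.10%. Nearer to clusters 17.7% of the non-cluster positions were called higher and 1.58% lower. In this comparison both directions were more frequent among distal CpGs than over all positions. Of the positions in clusters covered in all 4 libraries, 91.9% were under 20% in iPSCs and could not be called lower. The part of this limit was not tested.

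The levels in iPSCs went with those found in the neurons. Of the 23668 distal positions under 20% in iPSCs, 52.5% were also under 20% in mdDA neurons, 32.1% in iPSC-DA neurons and 23.7% in NESTIN-GFP precursors. Their median level was 18.1% in mdDA neurons, 38.9% in iPSC-DA neurons and 66.7% in the precursors. The 71128 positions at 20% to 80% in iPSCs had medians of 89.7%, 85.0% and 97.2%, respectively. Of the 52357 positions at 80% or more in iPSCs, 88.2% were at this level in mdDA neurons, 74.1% in iPSC-DA neurons and 96.8% in the precursors. In iPSC-DA neurons 25.6% of these highly methylated positions were intermediate, compared with 10.5% in mdDA neurons.

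Between the DA libraries the mean over distal positions was nearly equal, whereas single positions differed in both directions. The mean was 73.4% in iPSC-DA and 73.6% in mdDA neurons. The mean difference was -0.208 points, from -1.54 to 1.13 points on single autosomes, and above 0 on 7 of 19. Its sign was not stable, with 0.229 points at a minimum of 10 calls and 0.0979 points with strands merged. The standard deviation of the difference over positions was 21.4 points, and 53.3% of positions were within 10 points. Called higher in iPSC-DA neurons were 15155 distal positions, or 8.77% (95% CI 8.64% to 8.91%), compared with 18.2% of all positions. Called lower were 14813, or 8.58% (95% CI 8.45% to 8.71%), compared with 2.36%. This even split depended on how distal positions were defined. With clusters of at least 5 positions 6.18% were called higher and 10.6% lower, and beyond 50000 bp 8.61% and 10.5%. With a difference of at least 30 points the split was 6.42% and 4.96%. Outside clusters but within 10000 bp of them, 16.3% were called higher and 2.93% lower, with a mean difference of 7.99 points. In mdDA neurons 65.1% of the distal positions were at 80% or more, with almost no room to be called higher. Of the positions in clusters covered in all 4 libraries, 87.5% were under 20% there and could not be called lower. The part of these limits in the shares was not tested.

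Positions near an end of the scale in mdDA neurons and off it in iPSC-DA neurons mostly had an intermediate level in the latter. Of the distal positions covered in all 4 libraries, 16.6% (95% CI 16.4% to 16.8%) were at 80% or more in mdDA neurons but intermediate in iPSC-DA neurons. The share that was intermediate there but under 20% in mdDA neurons was 5.80% (95% CI 5.69% to 5.93%). Opposite ends were rare. At 826 positions (0.561%) mdDA neurons were under 20% and iPSC-DA neurons at 80% or more, and at 139 positions (0.0945%) the reverse was found. Of the 16973 positions under 20% in mdDA neurons, 44.8% were also under 20% in iPSC-DA neurons and 50.3% were intermediate.

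**Figure D3:**
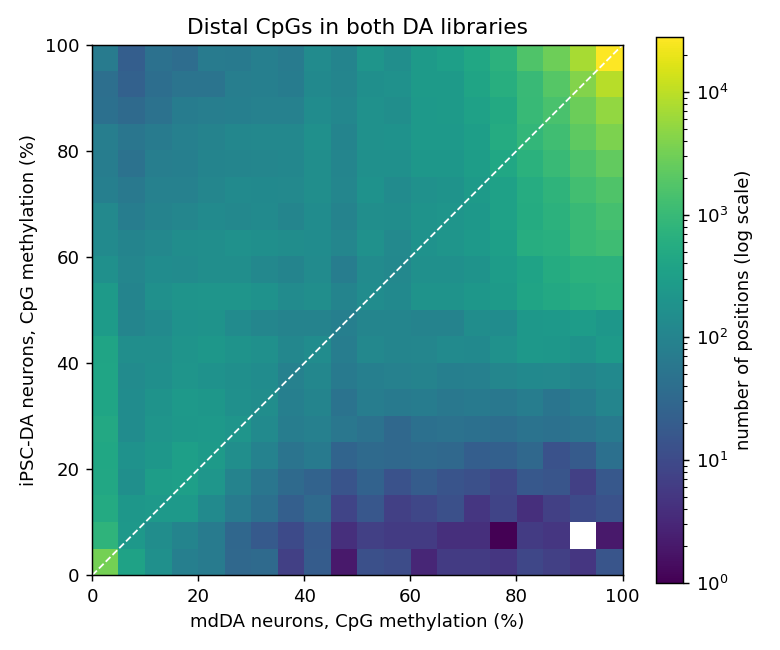
Number of distal CpG positions (color, log scale) by methylation in mdDA neurons (horizontal axis, %) and in iPSC-DA neurons (vertical axis, %), in squares of 5 points over 147153 positions. Equal levels lie on the dashed line, and a white square holds no position. The lower right corner (139 positions at 80% or more in mdDA and under 20% in iPSC-DA neurons) and the upper left corner (826 positions) are sparse beside the 24459 positions at 80% or more in mdDA and at 20% to 80% in iPSC-DA neurons.

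NESTIN-GFP precursors had the highest distal methylation. Over 147153 positions they exceeded iPSCs by a mean of 28.5 points, from 26.5 to 30.8 points on single autosomes. Called higher than in iPSCs were 61506 positions, or 41.8% (95% CI 41.5% to 42.0%), compared with 26.8% of all positions tested. The precursors had a median of 26 calls at distal positions and 16 in clusters, and the part of depth was not tested. With the calls of runs of at least 4 positions pooled, 55.7% of distal runs were called higher, compared with 54.1% of all runs. Every position of a run needed at least 5 precursor calls here, and 11828 of the 22649 runs left were distal. The near-equal background is thus to a large part the distal runs themselves. Called lower were 315 positions, or 0.214%, compared with 0.486%. At 51.1% of the distal positions the precursors had the highest level of the 4 libraries, with no tie.

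Compared with the precursors, iPSC-DA neurons were lower by a mean of 13.0 points, with autosomes from -13.8 to -12.0 points. In iPSC-DA neurons 27260 distal positions were called lower, or 18.5% (95% CI 18.3% to 18.7%), compared with 9.84% of all positions. Called higher were 1576 positions, or 1.07%, compared with 7.12%. In the precursors 84.7% of the distal positions were at 80% or more, with almost no room to be called higher. Of the positions in clusters 74.9% were under 20% there and could not be called lower. The part of these limits in the shares was not tested. With the calls of the libraries thinned to equal numbers, 11.8% of the distal positions were called lower and 0.505% higher, and the background was not recomputed for these calls. Of the positions at 80% or more in the precursors, 76.7% were as high in mdDA neurons and 66.1% in iPSC-DA neurons. The precursors come from another line, and a change along one lineage cannot be told apart from a difference between lines.

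**Figure D4:**
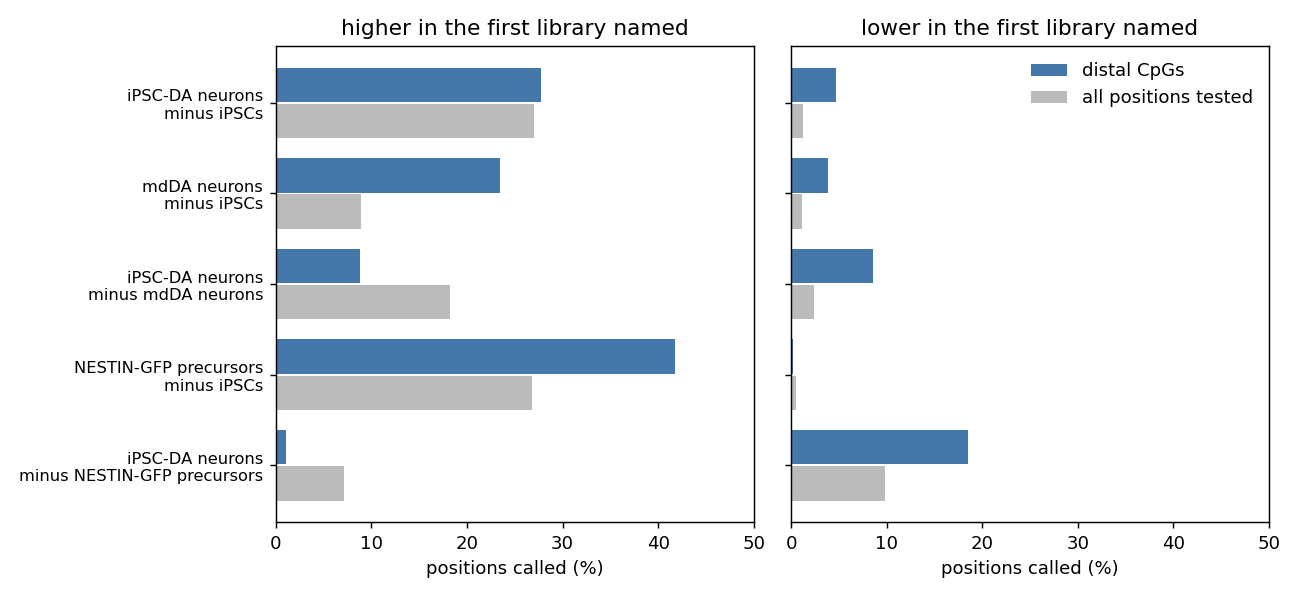
Percent of positions called in Fisher's exact test (adjusted p-value under 0.05 and at least 20 points) in 5 comparisons of 2 libraries, for distal CpGs (blue) and for all autosomal positions tested (gray). The left panel gives positions higher and the right panel positions lower in the library named first. The share of distal CpGs lower in iPSC-DA than in mdDA neurons was 8.58%, compared with 2.36% of all positions. Most positions in clusters were under 20% in mdDA neurons and could not be called lower.

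When the level at each distal position was classed as under 20%, 20% to 80%, or 80% or more in each library, 35367 positions (24.0%) were at 80% or more in all 4 libraries. The next class, with 34050 positions (23.1%), was intermediate in iPSCs and at 80% or more in the other libraries. Positions intermediate in iPSCs and iPSC-DA neurons but at 80% or more in the precursors and mdDA neurons made up 8.19%. Positions at 80% or more in all libraries except iPSC-DA neurons, where they were intermediate, made up 6.52%. A low level in all 4 libraries was found at 3554 positions, or 2.42% (95% CI 2.34% to 2.49%), and 3324 positions (2.26%) were under 20% in iPSCs and at 80% or more elsewhere.

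The spread within a library was measured on neighboring distal positions. At 4300 pairs of adjacent positions, which are taken as the strands of 1 CpG, the median absolute difference was 6.47 points in iPSCs, 5.00 in NESTIN-GFP precursors, 5.55 in the iPSC-DA and 3.61 in the mdDA library. The standard deviation of this difference was 13.2 points in iPSCs, 14.54 in the precursors, 13.8 in the iPSC-DA and 10.7 in the mdDA library, compared with 10.6, 8.01, 9.05 and 8.09 points for counting error alone. Differences of at least 20 points occurred at 11.5% of the pairs in iPSCs, at 11.3% in the precursors and also in iPSC-DA neurons, and at 6.26% in mdDA neurons. Single positions of a library thus vary by more than their counts alone would give. Between neighbors 51 to 99 bp apart, the standard deviation was 22.7 points in iPSC-DA neurons and 16.5 points in mdDA neurons.

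Runs of at least 4 distal positions were therefore also compared, with their calls pooled. The 14972 such loci had a median of 5 positions and a median length of 88 bp. Adjustment was over all runs of at least 4 positions, clusters included. As for single positions, a locus under 20% in 1 library cannot be called lower in the other, and a locus above 80% cannot be called higher. From iPSCs to iPSC-DA neurons 39.1% of the distal loci were called higher and 3.49% lower, compared with 37.8% and 1.46% of all runs. From iPSCs to mdDA neurons 34.1% were called higher and 5.03% lower, compared with 19.5% and 2.36%. In iPSC-DA relative to mdDA neurons 13.8% (95% CI 13.3% to 14.4%) were called higher and 6.37% (95% CI 5.99% to 6.77%) lower, compared with 22.1% and 2.74%. More loci were thus called higher than lower, whereas the counts of single positions were nearly even. These loci leave out all positions in runs of 1 to 3, at which mdDA neurons were higher on average. For runs of 1, 2 and 3 the means were 78.0%, 77.3% and 77.3% in iPSC-DA neurons. In mdDA neurons they were 82.8%, 80.3% and 78.4%. The part of these positions in the different split was not tested.

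The precursors could be compared in 11828 distal loci, which were a large part of the 22649 runs in this background. Without the precursors, 14972 of 42510 runs were distal. Relative to iPSCs 55.7% were called higher and 10 loci (0.0845%) lower, compared with 54.1% and 0.0662% of all runs. In iPSC-DA neurons relative to the precursors 1.58% were called higher and 21.8% lower, compared with 5.26% and 19.9%. Among the 10971 loci with at least 40 calls in all 4 libraries, an intermediate level was found at 33.6% in iPSC-DA neurons and at 18.2% in mdDA neurons, although the median depth was 398 and 407 calls per locus. In iPSCs the share was 51.5%, and in the precursors it was 11.0%.

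At the loci with the largest called gains, the libraries compared differed by 72.8 to 96.7 points, and at those with the largest losses by -97.3 to -46.0 points. Gene annotation at them was not analysed here, and the adjusted p-value was at most 2.36e-12 at each of them. At 8 positions on chromosome 13 from 98254826 to 98254887 (locus a of chromosome 13 in the plot of named loci), 243022 bp from a cluster, methylation was 3.46% in iPSCs (95% CI 2.07% to 5.72%, 405 calls). It was 98.9% in NESTIN-GFP precursors (285 calls), 99.03% in iPSC-DA neurons (411 calls) and 97.5% in mdDA neurons (403 calls). This locus had the largest gain from iPSCs to either DA library and was among the leading 2 for the precursors. At 9 positions on chromosome 1 from 63247011 to 63247132 (locus a), the level was 3.05% in iPSCs, 78.8% in the precursors, 92.1% in the iPSC-DA and 96.0% in the mdDA library. On chromosome 17 from 89003208 to 89003282 (locus a) it was 6.07% in iPSCs, 87.3% in the precursors, 100% in iPSC-DA neurons over only 73 calls and 91.4% in mdDA neurons. These loci were low in iPSCs alone.

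The loci with the largest losses from iPSCs to either DA library were high in iPSCs and low in mdDA neurons. The first 2 given here were picked for their loss in iPSC-DA neurons, and the other 2 for their loss in mdDA neurons. A low level in the library that named a locus therefore follows from the rule. On chromosome 8 from 122906373 to 122906482 (locus a) methylation was 86.2% in iPSCs and 94.3% in the precursors, but only 13.5% (95% CI 11.0% to 16.5%) over 593 calls in the iPSC-DA library and 15.4% (95% CI 12.7% to 18.6%) over 578 calls in mdDA neurons. On chromosome 12 from 12558734 to 12558847 (locus a) it was 88.1% and 88.4%, compared with 18.4% and 15.7%. Both DA libraries were low at these loci. On chromosome 1 from 161601054 to 161601154 (locus b) the level was 84.5% in iPSCs, 97.2% in the precursors, 41.4% in the iPSC-DA and 7.48% in the mdDA library. On chromosome 18 from 81905639 to 81905660 (locus a) it was 91.6%, 87.9%, 65.6% and 7.75%, respectively. At these loci iPSC-DA neurons lay between iPSCs and mdDA neurons, and their interval of 38.8% to 44.1% on chromosome 1 overlapped neither.

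Between the DA libraries, the largest gain in iPSC-DA neurons was at 9 positions on chromosome 5 from 113716298 to 113716361 (locus a). Methylation was 5.25% in iPSCs, 24.7% in the precursors and 6.50% in mdDA neurons (631 calls), but 98.96% in iPSC-DA neurons (95% CI 94.3% to 99.8%). The iPSC-DA library had only 96 calls there, compared with 438 in iPSCs, and this locus also had the largest gain over the precursors. On chromosome 5 from 122482566 to 122482594 (locus b) the level was 96.0% in the iPSC-DA and 5.00% in the mdDA library, with only 40 calls in mdDA neurons. Both of these gains rest on a library of low depth at the locus. The largest loss was at 6 positions on chromosome 8 from 123711293 to 123711426 (locus b), where 496 calls of iPSC-DA neurons gave 27.8% (95% CI 24.1% to 31.9%) and 302 calls of mdDA neurons gave 89.7% (95% CI 85.8% to 92.7%). On chromosome 15 from 25637106 to 25637183 (locus a) the level was 9.93% in iPSCs, 96.0% in the precursors, 25.4% in the iPSC-DA and 82.5% in the mdDA library.

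Further loci were named for differences between the precursors and iPSC-DA neurons or iPSCs. On chromosome 17 from 33822223 to 33822258 (locus b), all 88 calls of the precursors at 8 positions were methylated. The level was 6.25% in iPSCs, 2.68% in the iPSC-DA and 7.14% in the mdDA library, with 56 to 112 calls each. These positions span 36 bp, less than a read of 40 bases, so that 1 read can give calls at several of them. The number of reads behind these levels is thus smaller than the number of calls. On chromosome 12 from 17514135 to 17514168 (locus b) the level was 97.8% in the precursors, 51.6% in iPSCs, 7.78% in the iPSC-DA and 21.3% in the mdDA library. On chromosome 18 from 38728784 to 38728823 (locus b) it was 3.31% in iPSCs and 100% in the precursors, with 82.9% in the iPSC-DA and 72.9% in the mdDA library. On chromosome 18 from 30427040 to 30427074 (locus c) the level was 20.8% in the precursors and 3.79% in iPSCs, compared with 93.6% in the iPSC-DA and 66.6% in the mdDA library. The precursors alone were high at the chromosome 17 locus, whereas iPSCs alone were low at locus b of chromosome 18.

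Losses from iPSCs to the precursors were few. The largest was on chromosome 1 from 91600037 to 91600137 (locus c), with 69.7% in iPSCs, 23.1% in the precursors (95% CI 16.0% to 32.0%), 67.8% in the iPSC-DA and 8.45% in the mdDA library. On chromosome 15 from 83529618 to 83529709 (locus b) the levels were 78.9%, 32.9%, 51.5% and 10.6%. At both loci the precursors and mdDA neurons were lower than the other libraries, and all 4 intervals were separate on chromosome 15.

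In all, 351 of the 10971 loci, or 3.20%, were under 20% in all 4 libraries, and 2352 (21.4%) were at 80% or more in all of them. The 2 low loci with the most positions, and among equals the most calls, were of 9 positions each, on chromosome 8 from 41948003 to 41948085 (locus c) and on chromosome 4 from 145335027 to 145335103 (locus a). They lay 227807 and 103971 bp from a cluster. At the first the levels ran from 3.73% in iPSC-DA neurons to 10.3% in the precursors, and at the second from 3.79% in iPSCs to 11.7% in the precursors. They were picked for the most positions, and 9 is the most that a run outside clusters can hold.

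**Figure D5:**
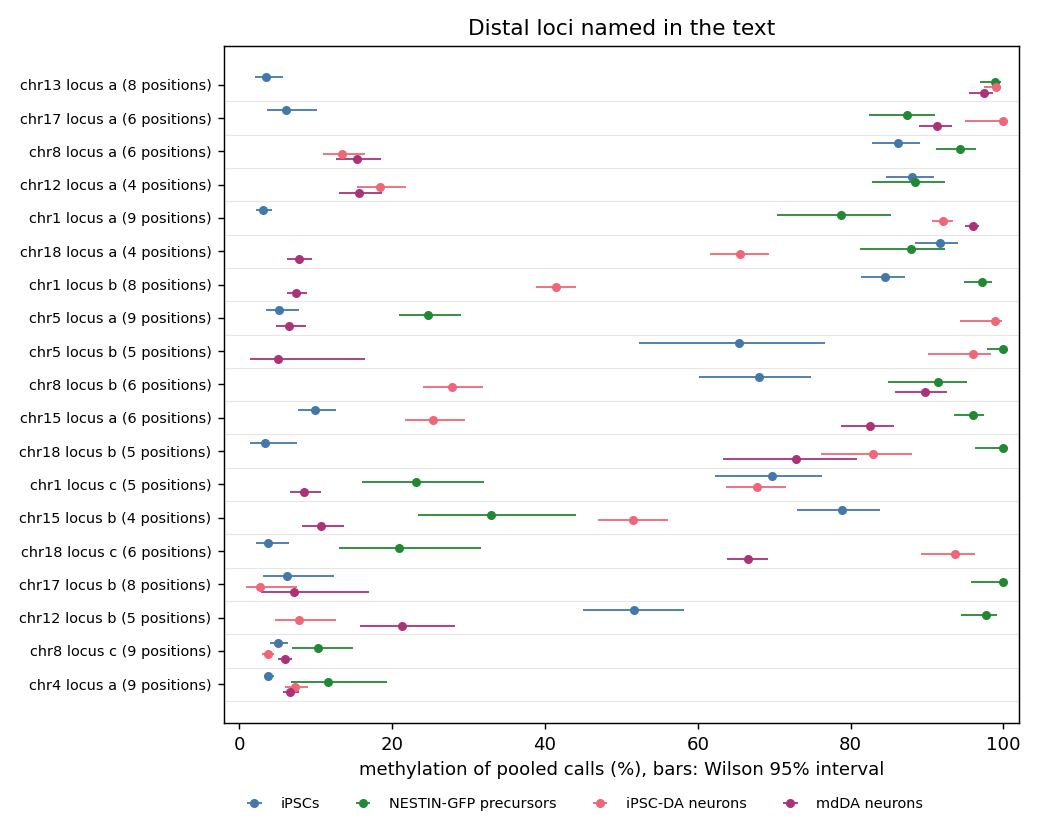
Methylation of the pooled calls (horizontal axis, %) of the 19 distal loci described in the text, 1 row per locus and 1 point per library, with Wilson 95% intervals that cover counting error only. Rows are in the order of the comparisons that named them, and the chromosome 13 locus is at 3.46% in iPSCs and at 97.5% to 99.03% in the other libraries.

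Distal methylation also varied over broad windows. In 1529 windows of 1 Mb with at least 30 distal positions covered in all 4 libraries, the mean level ran from 13.4% to 90.0% in iPSCs, from 23.8% to 98.6% in the precursors, from 30.7% to 94.8% in iPSC-DA neurons and from 19.96% to 97.1% in mdDA neurons. From the 5th to the 95th percentile of windows, the level was 59.2% to 86.8% in iPSC-DA neurons and 55.2% to 92.3% in mdDA neurons. The precursors exceeded iPSCs in all of these windows and iPSC-DA neurons in 99.2% of them. Between the DA libraries the median difference was -0.428 points, and iPSC-DA neurons were higher in 731 windows (47.8%). Across these windows Pearson's r was 0.848 for the DA libraries, 0.708 between iPSCs and mdDA neurons and 0.615 between iPSCs and iPSC-DA neurons. Between the precursors and the other libraries it was 0.818 with iPSC-DA neurons, 0.778 with mdDA neurons and 0.6875 with iPSCs. Windows of a library share its depth and preparation, and the values are given as a description without a p-value.

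The highest means in mdDA neurons were in windows on chromosome 8, from 5000001 to 6000000 with 97.1% and from 99000001 to 100000000 with 97.0%. In iPSC-DA neurons the same windows were at 82.1% and 85.5%, and in iPSCs at 82.5% and 86.7%. The median position of these windows lay 961138 and 1376643 bp from a cluster. In these windows iPSC-DA neurons were close to iPSCs and below mdDA neurons and the precursors, the latter at 95.3% and 95.8%. The windows were picked for a high mdDA level, so that a lower level in another library partly follows from the rule. Over all positions beyond 500000 bp the mean was 71.1% in iPSCs, 76.8% in iPSC-DA and 85.6% in mdDA neurons.

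The lowest means in mdDA neurons were on chromosome 1 from 176000001 to 177000000, at 19.96%, and on chromosome 14 from 4000001 to 5000000, at 20.02%. In iPSC-DA neurons they were 48.6% and 42.4%, and in iPSCs 13.4% and 13.5%. The 30 positions of the chromosome 1 window came from only 5 runs, so that a few loci set its mean. This window also had the largest gain of iPSC-DA over mdDA neurons, 28.7 points, and the next was on chromosome 1 from 19000001 to 20000000 with 26.6 points. The largest differences the other way were on chromosome 7 from 145000001 to 146000000, where iPSC-DA neurons were at 58.3% and mdDA neurons at 78.4%, and on chromosome 6 from 20000001 to 21000000, where they were at 75.1% and 95.03%. These windows held 33 and 36 positions, from 21 and 12 runs.

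Across single distal positions, Pearson's r was 0.743 for the DA libraries, 0.602 between iPSCs and mdDA neurons and 0.524 between iPSCs and iPSC-DA neurons, over 147153 positions. Between the precursors and the other libraries it was 0.544 with iPSCs, 0.643 with iPSC-DA neurons and 0.662 with mdDA neurons. Positions of a library share its depth and neighboring positions share reads, and the values are given without a p-value.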

How the data were processed

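The 4 RRBS libraries, 1 per cell population, were used. The authors sequenced single reads of 40 bases, trimmed them with TrimGalore, and aligned and called them with Bareback and Bismark. The submitters' processing notes name Trim Galore 0.3.5 and Bismark 0.10.1. The authors deposited the counts of methylated and unmethylated calls at each cytosine position, without normalization, and the percent of methylated calls. Conversion failure, PCR copies and linked calls in a read would all enter these values. The genome build is not given in the sources used here. Positions on chromosome 1 reach 197183297, which fits NCBIM37.

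Levels are unweighted over positions, with strands kept apart. Fisher's exact test was written with numba 0.67.0 and numpy 2.4.6 in Python 3.11.15 and tested on simulated data. The distal positions, loci and thresholds were chosen with earlier results of these data known. Loci named had at least 4 distal positions and 40 pooled calls per library. They were the 2 largest called gains and 2 largest called losses of each comparison. Also named were the 2 loci with the most positions among those under 20% in all libraries. Windows named had the 2 highest and 2 lowest mdDA levels or differences between the DA libraries. Alternatives were at least 10 calls, merged strands, a distance over 50000 bp, clusters of at least 5 positions, removal of positions above the 99th percentile of depth, thinning to equal calls, a difference of 30 points and at least 6 positions per locus. A minimum of 20 calls was added after seeing the data. Sex chromosomes were not used here.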

Additional observations from a re-analysis of the deposited data

How the results depend on the processing

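Of 140 values recomputed under the alternatives, 111 stayed within the limits set, which were 1.5 times the value for a share called and 1 SD over autosomes for a mean difference. The near-zero mean difference of iPSC-DA minus mdDA neurons turned to 0.229 points with at least 10 calls and to 0.0979 points with strands merged, so that its sign is not fixed. It was -1.61 points beyond 50000 bp and -3.01 points with clusters of at least 5 positions. Beyond 50000 bp the means over iPSCs were 10.9 points for iPSC-DA neurons, 12.5 for mdDA neurons and 24.9 for the precursors. With clusters of at least 5 positions they were 11.0 points for iPSC-DA neurons and 26.1 for the precursors. The difference of iPSC-DA neurons from the precursors was -12.3 points with at least 10 calls, -12.1 with strands merged and -14.6 with clusters of at least 5 positions. The positions above the 99th percentile of depth moved none of these values beyond the limits.

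The share of distal positions called higher in iPSC-DA neurons than in the precursors was 0.589% with clusters of at least 5 positions and 0.505% with equal calls by thinning, which also gave 11.8% called lower and 0.0917% lower in the precursors than in iPSCs. With a difference of at least 30 points, fewer calls follow from the rule. Then 2.96% of positions and 1.27% of loci were lower in iPSC-DA neurons than in iPSCs, and 4.96% of positions and 1.99% of loci lower than in mdDA neurons, with 8.35% of loci higher. The precursors were lower than iPSCs at 0.124% of positions and 0.0423% of loci. In iPSC-DA neurons 0.710% of loci were higher and 12.0% lower than in the precursors. With at least 6 positions per locus, 2.16% of loci were lower in iPSC-DA neurons than in iPSCs and 3.67% lower than in mdDA neurons, 2.45% were higher than in the precursors, and 0.0264% were lower in the precursors than in iPSCs. The cause of these shifts was not tested except where the rule gives it.

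With at least 20 calls in all libraries, added after seeing the data, intermediate levels made up 51.9% of distal positions in iPSCs, 8.78% in the precursors and 19.9% in mdDA neurons. Levels under 20% made up 12.7%, 3.03% and 8.17% in these libraries and 3.63% in iPSC-DA neurons, so that the shares of low levels move with the minimum of calls. At a minimum of 5 calls a position can take few levels.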
